A study of Mus musculus with 4 samples.

Results

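The metallothionein genes Mt1 and Mt2, the metal sensor gene Mtf1 and 7 zinc transporter genes were compared between unstimulated and zymosan-treated mouse macrophages. The 10 genes are Mt1, Mt2, Mtf1, Slc30a1, Slc30a5, Slc30a7, Slc39a1, Slc39a6, Slc39a10 and Slc39a14. Every probe set whose only gene symbol in the platform annotation was one of these was read on its own. That gave 24 probe sets, of 34945 with 1 symbol on the array and 18193 genes in all. A probe set is a group of short oligonucleotide probes aimed at 1 transcript, and only Mt2, Slc30a5 and Slc39a1 had a single one. The genes were selected on the same measured values that are given here, their log2 differences between zymosan and unstimulated arrays, so these values are a description. No p-value of a member is given, and counts of members called by a test over all probe sets stand beside the share or number called over all.

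The macrophages were grown from marrow over 6 days with recombinant human M-CSF, on which this lineage depends. Cells of both groups were MyD88 -/-, without the adaptor that links most Toll-like receptors and the receptors of the interleukin-1 family to their kinases. The unstimulated group (0 min) and the zymosan group each had 2 arrays. Zymosan, a particle of yeast cell wall, was given at 100 ug/ml for 120 min. The comparison asks what a 2 h contact with zymosan changes in MyD88-deficient cells. Wild-type cells were not analysed here, so nothing can be said of what depends on MyD88. Nothing in the labels ties the arrays to separate mice or cultures, and p-values then measure only the spread between arrays, which may be technical. The titles of the unstimulated arrays carry LPS on one and PIC on the other, and those of the zymosan arrays carry ZYM. The controls may thus come from other experiments, which cannot be told apart from zymosan here. Below, before and after stand for the unstimulated and the zymosan arrays.

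Zinc inside a cell is held at a very low free level by binding and by transport. Metallothioneins are small cysteine-rich proteins that bind zinc and copper and give them up again. MTF1 is the transcription factor that senses zinc, binds metal response elements and switches on metallothionein genes and Slc30a1. Transporters of the SLC30 family, also called ZnT, move zinc out of the cytosol, either out of the cell or into vesicles and the secretory pathway. Those of the SLC39 family, also called ZIP, move zinc into the cytosol. In macrophages, zinc withheld from a microbe or delivered to it in the phagosome is part of host defence, and metallothioneins are also induced by glucocorticoids, cytokines and oxidants.

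The DNA just before the start of the genes with the largest differences is shown because MTF1 acts through a short motif there. The promoter table of RefSeq (build GRCm38.p6) held entries for 8 of the 10 genes. The 250 bases before the annotated start are printed 5′ to 3′ on the gene's own strand. Capitals mark the core of the metal response element, searched as TGCACNC and TGCGCNC on both strands.
Mt2, chr8:94172368-94172617, plus strand: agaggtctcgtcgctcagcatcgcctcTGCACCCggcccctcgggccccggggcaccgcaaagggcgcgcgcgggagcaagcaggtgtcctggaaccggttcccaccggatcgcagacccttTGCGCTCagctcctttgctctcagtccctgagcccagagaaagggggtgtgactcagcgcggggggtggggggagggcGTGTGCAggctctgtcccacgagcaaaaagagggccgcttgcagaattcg
Mt1, chr8:94178839-94179088, plus strand: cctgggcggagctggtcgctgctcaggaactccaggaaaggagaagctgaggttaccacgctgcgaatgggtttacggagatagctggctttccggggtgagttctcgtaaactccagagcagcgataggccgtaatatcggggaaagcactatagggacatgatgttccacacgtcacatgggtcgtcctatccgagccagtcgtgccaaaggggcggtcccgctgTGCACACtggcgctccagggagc
Slc30a1, chr1:191906531-191906780, plus strand: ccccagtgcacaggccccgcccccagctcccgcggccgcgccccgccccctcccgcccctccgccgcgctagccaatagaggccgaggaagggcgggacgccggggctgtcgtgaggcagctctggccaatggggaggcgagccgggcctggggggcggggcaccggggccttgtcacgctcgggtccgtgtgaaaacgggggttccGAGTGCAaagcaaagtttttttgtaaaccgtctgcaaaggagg

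The Mt2 window held 3 matches of the metal response element core, which lie 223 to 217, 128 to 122 and 50 to 44 bases before the start. The Mt1 window held 1, at 23 to 17 bases before the start, and that of Slc30a1 held 1, at 43 to 37 bases. Of 32851 promoter windows of this length, 21.4% held at least 1 match and 1.26% at least 3. Counted to 50 bases past the start as well, there were 4 matches for Mt2, 3 for Mt1 and 2 for Slc30a1, and 7.11% of all windows of 300 bases held at least 2. Slc30a5 also had 1 match in the shorter window, at 48 to 42 bases, and no match was found for Mtf1, Slc30a7, Slc39a1 or either Slc39a10 entry. The core of the antioxidant response element, searched as TGACNNNGC on both strands, occurred once each in the shorter windows of Mt2, Slc30a1 and Slc39a1, against 10.2% of all windows. It overlapped no metal response element there. These matches describe letters in a window and not bound sites. They depend on the annotated start, whose place was not checked, and DNA more than 50 bases past it was not searched. The counts of either motif, that of Mt1 above all, are thus not counts for a whole promoter. Slc39a6 and Slc39a14 had no entry. In the same annotation the coding genes Mt4, Mt3, Mt2 and Mt1 are direct neighbours on chromosome 8.

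Expression was read as RMA values on the log2 scale. The arrays of a group correlated at r = 0.989 (unstimulated) and r = 0.995 (zymosan) across 27571 kept probe sets, and those of different groups at 0.964 to 0.969, as a description, since probe sets are not independent. Hybridization dates put the unstimulated arrays 16 days apart and both zymosan arrays together 153 days after the earlier one, with another operator named, so day, operator and zymosan cannot be told apart. Myd88 read 8.72 and 8.78 on the unstimulated and 8.37 and 8.40 on the zymosan arrays. Since all the cells are labelled deficient and the place of its probes in the gene is not known here, this checks no label. All 8 macrophage markers examined passed the filter on low values, and 5 of them, Adgre1, Csf1r, Itgam, Fcgr1 and Cd14, were lower after zymosan by limma's test. Of 11 granulocyte and precursor markers on the array, 10 were higher. Their summed linear signal ran from 1129 to 1172 on unstimulated and from 5136 to 5342 on zymosan arrays. The part of these cells in any difference below was not tested. None of 3 T cell, 2 B cell and 3 fibroblast markers that passed the filter was higher, and the B cell marker Cd79b was lower. Both erythroid markers on the array, Hba-a1 and Alas2, failed the filter. In such bulk RNA, fewer cells of a type and less RNA per cell cannot be told apart.

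Mt2 had the largest difference of the 10 genes. It read 10.33 and 10.20 on the unstimulated arrays and 12.36 and 12.52 on the zymosan arrays. Both zymosan arrays lay far above both unstimulated ones, and the arrays of a group were within 0.16 of each other. The group means were 10.26 ± 0.09 and 12.44 ± 0.11 (SD, n = 2), a difference of 2.17 or 4.51-fold. Over all kept probe sets, 99.7% had a smaller signed difference than this one.

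Mt1 was read by 2 probe sets. The brighter, 1422557_s_at, carries a suffix by which the maker marks probe sets whose probes can match more than 1 transcript, so a share of its signal may come from a close relative. It read 11.94 and 11.76 before and 13.14 and 13.17 after zymosan, a difference of 1.30 (SE 0.11) or 2.47-fold. The other, 1451612_at, without that suffix, read 6.14 and 5.60 before and 7.27 and 7.24 after. Its difference was 1.39 (SE 0.19) or 2.62-fold, with the unstimulated arrays 0.54 apart. Both probe sets thus placed the zymosan arrays above the unstimulated ones, by at least 1.20 and 1.10 for any pair of arrays.

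The metal sensor gene Mtf1 gave unlike readings at its 5 probe sets. At 1418333_at it read 6.64 and 6.45 before and 6.99 and 7.07 after zymosan, a difference of 0.48 (SE 0.12). At 1428979_at it read 6.41 and 6.38 before and 6.91 and 7.02 after, a difference of 0.57 (SE 0.11) or 1.48-fold. At 1429170_a_at, whose suffix marks probes shared by alternative transcripts of 1 gene, the order was opposite, with 6.59 and 6.60 before and 6.15 and 6.24 after, a difference of -0.40 (SE 0.10). The arrays of the groups did not overlap at any of these 3 probe sets, so the sign of the Mtf1 difference depends on which is read. At 1440414_at the groups overlapped (4.28 and 4.60 against 4.32 and 4.60). At 1452990_at every array was below the level of the filter, which was 4.36 to 4.39. The annotation gives 1428979_at and 1452990_at the same source sequence.

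**Figure D1:**
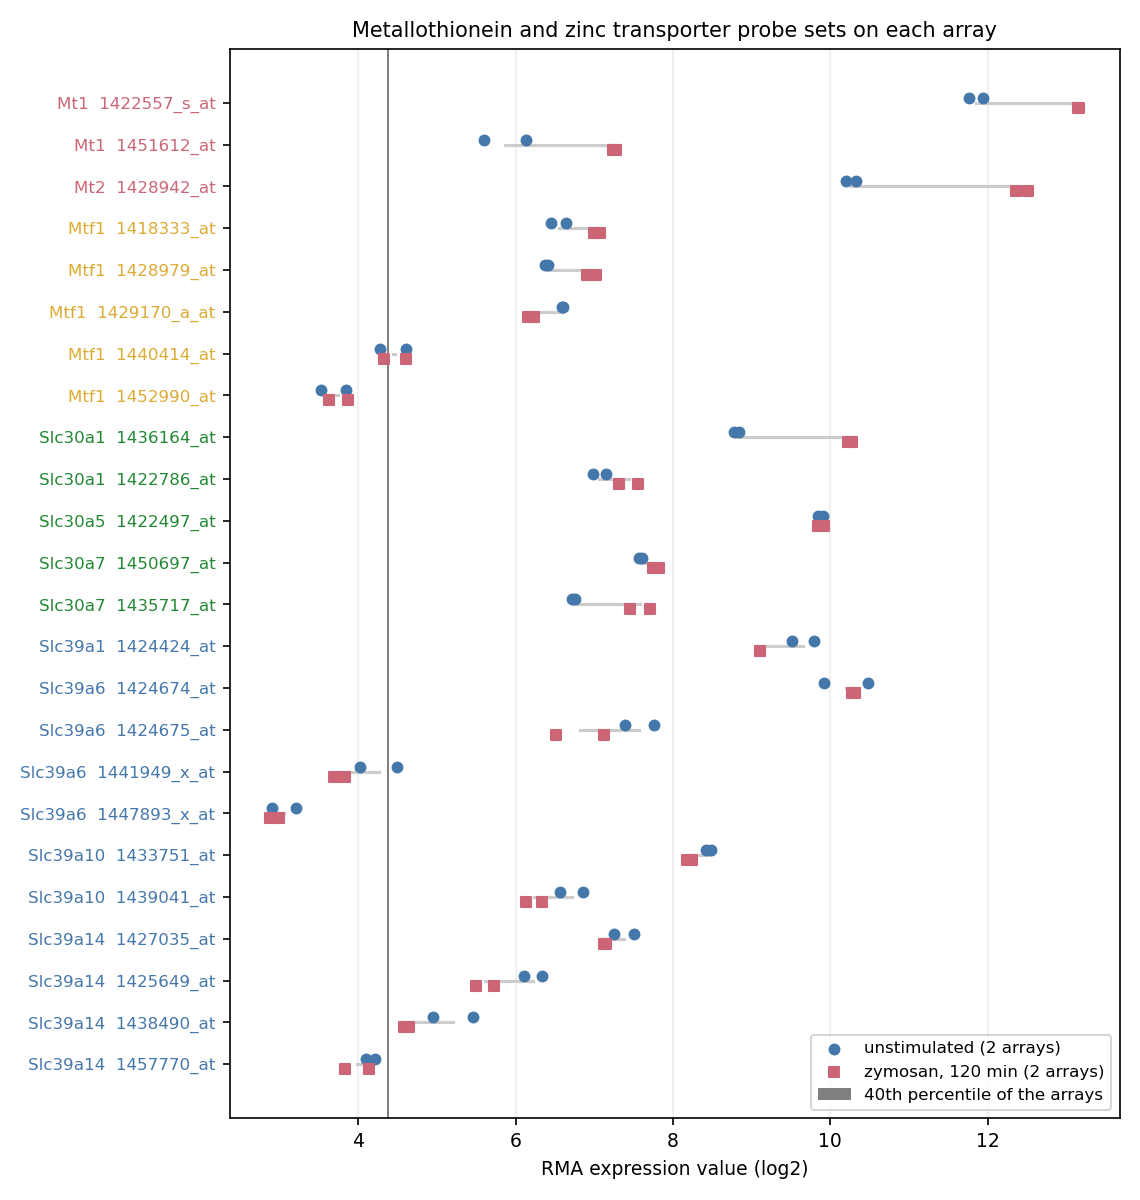
RMA expression value (log2, x axis) of each of the 24 probe sets of the 10 genes on the 2 unstimulated arrays (circles) and the 2 zymosan arrays (squares); grey lines join the group means, the vertical band marks the 40th percentile of the arrays, and label colours mark metallothioneins, Mtf1, ZnT and ZIP genes. The squares of Mt1, Mt2 and 1 Slc30a1 probe set lie at least 1.10 to the right of the circles, while most Slc39 squares lie to the left.

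Of the genes that move zinc out of the cytosol, Slc30a1 had the largest difference. It encodes ZnT1, the zinc exporter of the plasma membrane. Its brighter probe set, 1436164_at, read 8.84 and 8.77 before and 10.28 and 10.23 after zymosan. The means were 8.81 ± 0.05 and 10.25 ± 0.04 (SD, n = 2), a difference of 1.45 or 2.73-fold, with the arrays of each group 0.07 and 0.05 apart. The other, 1422786_at, read 6.98 and 7.15 before and 7.32 and 7.56 after. There the groups did not overlap either, but the difference was 0.38 (SE 0.13), or 1.30-fold, and the closest arrays of the 2 groups were 0.17 apart. The size of the Slc30a1 difference thus depended on the probe set and its direction did not.

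Slc30a7 encodes ZnT7, which carries zinc into the Golgi. Its probe set 1435717_at read 6.72 and 6.75 before and 7.45 and 7.71 after zymosan, a difference of 0.85 (SE 0.13) or 1.80-fold. At 1450697_at it read 7.61 and 7.57 before and 7.82 and 7.75 after, a difference of 0.20 (SE 0.10). The zymosan arrays were higher at both, by unlike amounts. Slc30a5, which encodes ZnT5, another transporter of the early secretory pathway, read 9.91 and 9.85 before and 9.92 and 9.85 after. Its groups overlapped almost exactly, with a difference of 0.00 (SE 0.11).

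The 4 genes that move zinc into the cytosol read lower or overlapped. Slc39a1 encodes ZIP1, a widely expressed plasma membrane importer. It read 9.52 and 9.79 before and 9.10 and 9.10 after zymosan, a difference of -0.55 (SE 0.13) or 1.47-fold lower. The unstimulated arrays were 0.28 apart and both lay above the zymosan arrays.

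Slc39a14 encodes ZIP14, which carries iron and manganese as well as zinc. At 1425649_at it read 6.33 and 6.11 before and 5.72 and 5.50 after zymosan, a difference of -0.61 (SE 0.14) or 1.53-fold lower. At 1438490_at it read 5.46 and 4.95 before and 4.64 and 4.58 after, a difference of -0.59 (SE 0.18). The brightest of its probe sets, 1427035_at, read 7.50 and 7.25 before and 7.14 and 7.13 after, a difference of -0.24 (SE 0.13). All 3 placed the zymosan arrays below the unstimulated ones, and the last by as little as 0.11 between the closest arrays. The remaining one, 1457770_at, was below the level of the filter on every array.

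Slc39a10 encodes ZIP10, an importer whose gene MTF1 is known to repress when zinc is high. At 1433751_at it read 8.42 and 8.49 before and 8.25 and 8.18 after zymosan, a difference of -0.24 (SE 0.11). At 1439041_at it read 6.56 and 6.86 before and 6.34 and 6.13 after, a difference of -0.47 (SE 0.15). Neither pair of groups overlapped.

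Slc39a6 encodes ZIP6, a close relative of ZIP10 with which it forms heteromers. Its probe sets did not give 1 direction. The brightest, 1424674_at, read 10.48 and 9.92 before and 10.28 and 10.32 after zymosan, so both zymosan arrays lay between the unstimulated ones. At 1424675_at, made from the same source sequence, it read 7.75 and 7.38 before and 7.13 and 6.51 after. That difference was -0.75 (SE 0.24), with the arrays of each group 0.37 and 0.61 apart. Of its probe sets 1441949_x_at and 1447893_x_at, whose suffix marks probes that may cross-hybridize, 1 reading passed the level of the filter on 1 unstimulated array.

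Read together by role, all 3 metallothionein probe sets and 4 of 5 ZnT probe sets had both zymosan arrays above both unstimulated ones. Of 8 kept ZIP probe sets, 7 had both below, and the eighth, of Slc39a6, overlapped. Among all kept probe sets, 30.4% had every zymosan array above and 30.2% every zymosan array below, so arrays without overlap are common here. In all, 20 of the 24 member probe sets passed the filter, which kept probe sets at or above the 40th percentile on at least 2 arrays, and every one of the 10 genes kept at least 1. By limma's test, adjusted by Benjamini-Hochberg over the whole set of kept probe sets, 7 of the 20 were called higher (the share over all kept probe sets was 8.48%) and 2 lower (7.45% over all). As the members were chosen in view of this contrast, nothing is read from these counts. The median difference was 0.06 over the 20 and -0.01 over all kept probe sets. With either zymosan array left out the test called fewer members, and it then called fewer of all kept probe sets too.

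**Figure D2:**
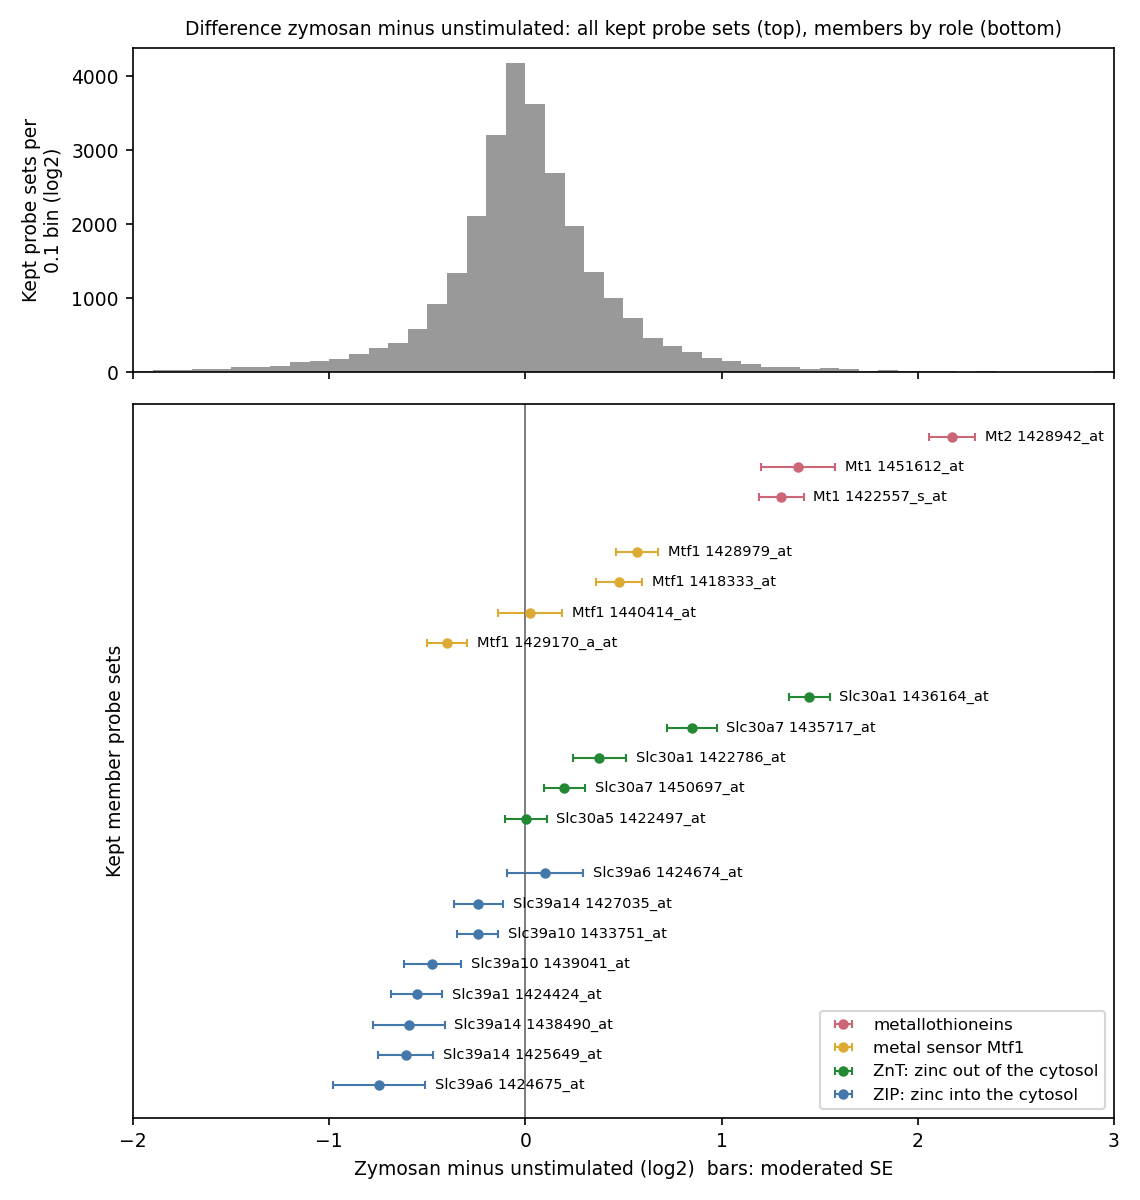
Top: number of kept probe sets per 0.1 of difference, zymosan minus unstimulated (log2). Bottom: the 20 kept member probe sets on the same axis with limma's moderated SE as bars, coloured by role. Mt2 (2.17), Slc30a1 (1.45) and Mt1 (1.39 and 1.30) lie in the thin right tail, and ZIP probe sets lie between -0.75 and 0.10; 76 kept probe sets lie below the axis and 21 above it.

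Single arrays moved some members more than others. Within the unstimulated pair, the gap was 0.56 for Slc39a6 at 1424674_at, 0.54 for Mt1 at 1451612_at and 0.50 for Slc39a14 at 1438490_at, each higher on replicate 1. It was 0.03 or less for Mtf1 at 1428979_at and 1429170_a_at. Within the zymosan pair, the widest gap was 0.61 for Slc39a6 at 1424675_at, and Slc39a1 differed by 0.00. With 1 array left out at a time, the Mt2 difference ran from 2.09 to 2.25, that of Slc30a1 at 1436164_at from 1.41 to 1.48, and that of Mt1 from 1.21 to 1.39 at the brighter probe set and from 1.12 to 1.66 at the other. The Slc39a1 difference ran from -0.69 to -0.42, and that of Slc39a14 from -0.85 to -0.34 at 1438490_at, from -0.37 to -0.12 at 1427035_at and from -0.72 to -0.50 at 1425649_at. That of Slc39a6 ran from -1.05 to -0.44 at 1424675_at and changed sign at 1424674_at, from -0.18 to 0.38, as did that of Mtf1 at 1440414_at, from -0.14 to 0.19. Those of Mtf1 ran from 0.38 to 0.57 at 1418333_at and from 0.51 to 0.63 at 1428979_at.

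In the rest of the 3 families the genes that passed the test were all higher. Of 19 other metallothionein, ZnT and ZIP genes, 15 were measured, and limma's test over 13222 genes, each taken at its kept probe set with the highest mean, found 3 higher and 0 lower (10.1% and 6.73% of all genes tested were higher and lower). At an unadjusted p under 0.05, 4 were higher and 1 lower. Their median difference was -0.0019, against 0.0043 over all genes tested.

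Slc30a6, which encodes ZnT6, the partner of ZnT5 in the early secretory pathway, rose 1.72-fold. It read 7.86 and 7.65 before and 8.60 and 8.47 after zymosan (difference 0.78, SE 0.12, limma adjusted p = 0.011). Slc39a8, which encodes ZIP8, an importer at the plasma membrane and lysosome, rose 1.64-fold, from 7.25 ± 0.23 to 7.97 ± 0.05 (SD, n = 2, difference 0.71, SE 0.13, limma adjusted p = 0.0202). At its other probe set it differed by -0.04 (adjusted p = 0.882), so the rise rests on 1 of 2 readings. Slc39a13, which encodes ZIP13 of the secretory pathway, rose by 0.41 (SE 0.10, limma adjusted p = 0.0404). Of the 8 other ZIP genes measured, 2 rose and 0 fell by this test. The ZIP members were described above by the order of the arrays, which is another measure. By that order Slc39a8, Slc39a13, Slc39a9 and Slc39a11 were higher and Slc39a3 lower, while Slc39a7, Slc39a5 and Slc39a12 overlapped. As the members were chosen in view of this contrast, nothing is read from how they differ from the others.

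Slc39a9 differed by 0.37 and did not pass the test (limma adjusted p = 0.0519). Slc39a3 differed by -0.27, Slc30a9 by 0.19, Slc39a11 by 0.16, Slc39a7 by -0.16 and Slc30a4 by -0.06, none of them past the threshold. Mt3, the metallothionein best known from brain, read 4.90 and 4.93 before and 4.82 and 4.71 after (difference -0.15, limma adjusted p = 0.357). Mt4, best known from squamous epithelium, was at 3.59 or lower on every array and below the level of the filter. Of these chromosomal neighbours of Mt2 and Mt1, Mt3 did not pass the threshold and Mt4 was not tested. The Mt3 values were little above the level of the filter (4.36 to 4.39). Slc30a8, Slc39a2 and Slc39a4 also failed the filter.

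Other genes known to respond to MTF1 did not move one way. Of 7 measured, 1 rose and 2 fell, against 10.1% higher and 6.73% lower of all genes tested. The median of the 7 was -0.09, and nothing is read from counts this small. Gclc, a subunit of the first enzyme of glutathione synthesis, rose 1.87-fold (9.30 and 8.69 before, 10.04 and 9.76 after, SE of the log2 difference 0.22, limma adjusted p = 0.0406). Selenow, a small selenoprotein, fell by 0.55 (SE 0.11, limma adjusted p = 0.0249), and its other probe set fell by 1.37. Csrp1, a LIM domain protein, fell by 0.49 (SE 0.12, limma adjusted p = 0.0452), and its other probe set fell by 0.97. Slc40a1, the iron exporter ferroportin, differed by 0.39 with overlapping arrays, Ndrg1 by 0.17, Pgf by -0.09 and Hamp by -0.41, none past the threshold. Pgf read 4.52 to 4.71 and Hamp 4.11 to 4.85, near the level of the filter (4.36 to 4.39), so these readings say little either way. The Hamp probe set also carries the suffix for probes that may cross-hybridize.

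Genes that handle copper, the other metal of metallothioneins, went both ways. Of 11 measured, 1 rose, 2 fell and 8 did not pass the test, against 10.1% higher and 6.73% lower of all genes tested. The median of the 11 was -0.03, and nothing is read from counts this small. Slc31a2, a copper transporter of endosomes, rose 1.71-fold (difference 0.77, SE 0.11, limma adjusted p = 0.00894), while its other probe set differed by 0.25 (adjusted p = 0.295). Sod1, the copper and zinc superoxide dismutase, fell by 0.60 (SE 0.12, limma adjusted p = 0.0236) at 1 probe set and differed by -0.27 to -0.34 at its other kept ones, none past the threshold. Atox1, a copper chaperone, fell by 0.51 (SE 0.09, limma adjusted p = 0.0194) and by 0.54 (limma adjusted p = 0.0384 over probe sets) at another probe set, while one more differed by 0.29 and did not pass (limma adjusted p = 0.115). Cox17 differed by 0.31, Commd1 by 0.19, the copper importer Slc31a1 by 0.16, and Atp7a, the copper pump of the Golgi, by -0.03, none past the threshold. Another Atp7a probe set, which did not represent the gene, read 8.19 and 8.15 before and 9.33 and 9.44 after zymosan, and it rose by 1.22 (SE 0.11, limma adjusted p = 0.00398 over probe sets), so Atp7a gave unlike readings. Sco1, Sco2, Ccs and Atp7b differed by no more than 0.08 either way.

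Glucocorticoids also induce metallothioneins. Among 9 other genes they induce, 2 rose and 0 fell, against 10.1% higher and 6.73% lower of all genes tested. Nothing is read from counts this small. The median of these 9 genes was 0.34. At an unadjusted p under 0.05, 5 were higher and 2 lower. Ddit4, an inhibitor of mTORC1 signalling, rose 2.37-fold, from 6.21 and 5.25 to 6.98 and 6.98 (SE of the log2 difference 0.29, limma adjusted p = 0.0389). The transcription factor gene Klf9 rose 1.73-fold (difference 0.79, SE 0.19, limma adjusted p = 0.0408), and 2 others of its 7 probe sets rose by 1.17 and 1.30. Its remaining kept probe set differed by -0.17 and did not pass (limma adjusted p = 0.5 over probe sets). Errfi1 (0.54), Fkbp5 (0.38), Tsc22d3 (0.34), Dusp1 (0.25), Per1 (-0.03), Sgk1 (-0.30) and Zbtb16 (-0.54) did not pass the test at the probe sets that represented them. At others, Tsc22d3 rose by 0.67 and 0.59 (limma adjusted p = 0.0272 and 0.042 over probe sets). Another Zbtb16 probe set read 5.01 and 5.13 before and 4.35 and 4.18 after zymosan, a fitted difference of -0.80. It passed the filter on the unstimulated arrays only, so the size of that difference is uncertain and no p-value is given. This probe set and the Tsc22d3 one that rose by 0.59 carry the suffix for probes that may cross-hybridize. Without zymosan replicate 1 or zymosan replicate 2, limma called 0 genes of any of these 4 lists. At an unadjusted p under 0.05 it then had 4 and 3 higher of the zinc families, 1 higher and 2 lower each time of the MTF1 and of the copper genes, and 2 higher of the glucocorticoid-induced genes. Without unstimulated replicate 1, 4 of the glucocorticoid-induced genes were higher. Without unstimulated replicate 2, 1 of them was lower, and 2 MTF1 genes were higher and 1 lower.

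**Figure D3:**
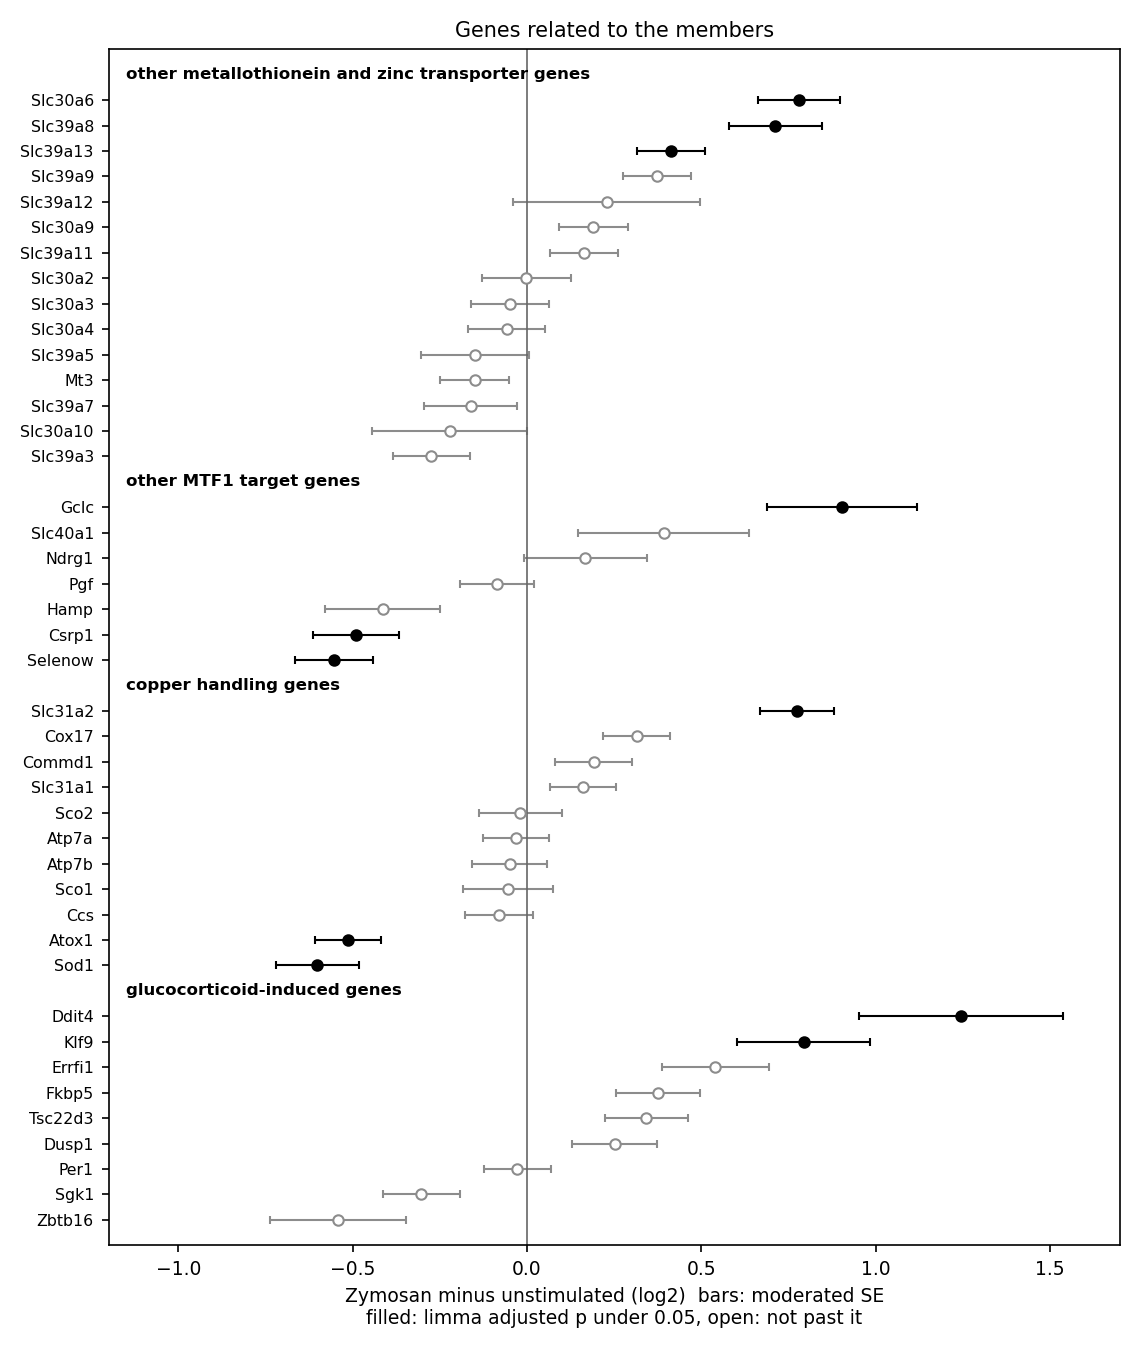
Difference zymosan minus unstimulated (log2, x axis, bars are limma's moderated SE) of every measured gene of the 4 related lists at the probe set that represents it. Filled points passed limma's test at an adjusted p under 0.05: Slc30a6, Slc39a8 and Slc39a13 of the zinc families, Gclc, Csrp1 and Selenow of the MTF1 genes, Slc31a2, Atox1 and Sod1 of the copper genes, and Ddit4 and Klf9.

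Other genes followed the arrays in much the same way as the metallothioneins. Likeness was the root mean square distance between the values on the 4 arrays, each gene centred on its own mean, over 13212 other genes. The genes nearest to Mt1 at its brighter probe set were Gpd2, the mitochondrial glycerol phosphate dehydrogenase, at a distance of 0.02, and Mex3c and Fam126b at 0.04. Nearest to Mt2 were Rffl (0.04), Sowahc (0.07) and Prtn3 (0.08). Prtn3, a serine protease of granulocyte precursors, is one of the granulocyte markers described above, and it read 4.82 and 4.74 before and 6.69 and 6.98 after zymosan. With 4 arrays in 2 groups, this likeness mostly reflects a difference of the same size between the groups.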

How the data were processed

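RNA was measured on 4 Affymetrix Mouse430_2 arrays with biotin-labelled cRNA from 4 ug of total RNA, 2 arrays per group, grouped by the labels. The authors deposited log2 expression values computed with RMA, according to the submitters' processing notes. This method removes background, gives all arrays 1 distribution and combines the probes of a probe set, so a number exists for every probe set, also for a transcript that the cells lack. The RMA version, and which arrays were normalized as a set, is not given in the sources used here. All 4 deposited columns were used. Array medians were 4.92 to 4.94, and the values were used as deposited.

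After 64 control probe sets were set aside, 34945 of 45037 had 1 symbol in the platform annotation, 932 several and 9160 none, and only the first were named. Kept probe sets reached the 40th percentile in at least 2 arrays. Differences (zymosan minus unstimulated) were fitted in limma 3.58.1 (lmFit, eBayes; R 4.3.3) over all kept probe sets or genes, 2-sided, with Benjamini-Hochberg adjustment and a threshold of 0.05. All adjusted p-values are from these fits. The fit was tested on simulated data with independent noise of the same spread in both groups and no effect of day. That test therefore does not bear on the mixing of day, operator and zymosan in the real arrays. An exact permutation test of 2 arrays against 2 cannot give a 2-sided p under 0.333. The number of arrays limits the precision. SD is over the 2 arrays, and SE is limma's moderated one.

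The members and lists were chosen with earlier results of these data known. Named genes are all member probe sets, the members of the 4 lists and the 3 nearest genes to Mt1 and to Mt2. Alternatives were other filters and normalizations, another variance model, another gene summary, the hybridization day as a random block and leaving out each array. Sequences are from RefSeq (GRCm38.p6). Proteins were not used here.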

Additional observations from a re-analysis of the deposited data

How the results depend on the processing

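Each of the 20 kept member probe sets that was still measured kept its difference to within 1 SD of the arrays (of the group with the larger one) under each alternative, 198 comparisons in all, and none that had been called changed sign. Leaving out 1 of 2 arrays cannot move a difference further than that. Another filter, variance model or block cannot change the difference itself, so only quantile normalization and the common median were free to move it further. Most of the 198 comparisons thus could not have come out otherwise. Calls depended more on the settings. With 1 array left out at a time, 231 to 2531 probe sets were higher and 157 to 2280 lower, and 159 to 1791 genes higher and 97 to 1125 lower, with the low ends without zymosan replicate 2, where the lone array of a group is assumed to vary like the others. Of the member probe sets, 2 to 7 were then higher and 0 to 2 lower. Of the other zinc family genes 0 to 4 were higher, of the MTF1 genes 0 to 2 higher and 0 to 3 lower, of the copper genes 0 to 1 and 0 to 2, and of the glucocorticoid-induced genes 0 to 4 and 0 to 1. With the hybridization day as a random block (correlation 0.45, taken from the spread of the array pairs, as limma's own estimate could not be fitted with 4 arrays in 3 blocks; chosen after seeing the data), 1053 probe sets were higher and 937 lower, and 589 genes higher and 400 lower. In that fit 5 member probe sets were higher and 0 lower. It also called 1 other zinc family gene higher, 0 MTF1 genes either way, 0 copper genes lower and 0 glucocorticoid-induced genes higher, where 4, 1 and 2, 2 and 4 had an unadjusted p under 0.05. Without a filter, limma called 2023 probe sets higher and 1743 lower over all, and 6 and 0 of the members. It then called 1 MTF1 gene lower, as it also did with the arrays set to a common median. With a trend and robust variance model 2 copper genes were higher. With the mean of a gene's probe sets 2 copper genes were higher and 1 lower, and 1 glucocorticoid-induced gene was lower. The cause of these changes was not tested. No paired analysis was possible because the labels give the groups no shared replicate numbers.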
